A study of Mus musculus with 8 samples.

Results

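Lung mRNA of Rgs5 and of 9 genes grouped with it, which mark pericytes and other mural cells or, for Pdgfb, encode the endothelial ligand that recruits them, was examined in mice given LPS and in mice given tangeretin before LPS. The 10 genes, out of 24584 in the deposited tables, were Rgs5, Pdgfrb, Cspg4, Notch3, Kcnj8, Abcc9, Higd1b, Des, Acta2 and Pdgfb, and each was taken by its gene symbol. Rgs5 was chosen by its fold change and p between the groups, which were already known, and the list was drawn up around it, so the differences between groups given here for these 10 genes are a description of the choice and are not tested as findings. RNA-seq was done on lung tissue of 4 wild-type male ICR mice aged 6 to 8 weeks in the LPS group and of 4 such mice in the LPS + Tan group. All 8 mice received LPS from Escherichia coli O111:B4 intraperitoneally at 5 mg/kg, which models sepsis-induced acute lung injury, and the lungs were taken 12 h later. The LPS + Tan mice also received 50 mg/kg of tangeretin, a polymethoxylated flavonoid of citrus peel, by the same route 30 min ahead of LPS. Lungs of untreated mice or of mice given tangeretin alone were not analysed here, so every comparison is between LPS + Tan and LPS. The extraction and library kits named in the sample labels differ from those named in the study's methods.

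Pericytes are contractile cells that wrap capillaries inside the basement membrane they share with the endothelium. PDGF-B made by endothelial cells recruits and keeps them through the receptor PDGFRB, and NOTCH3 receives signals from endothelial Notch ligands. RGS5 speeds up the inactivation of heterotrimeric G proteins downstream of vasoactive receptors, and KCNJ8 with ABCC9 forms the ATP-sensitive potassium channel of mural cells. None of the 10 genes belongs to pericytes alone in lung. Des and Acta2 are also expressed in smooth muscle, Pdgfrb in fibroblasts, and Pdgfb is mainly a product of the endothelium.

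The promoters of 3 members are shown. Rgs5 was the member with the smallest spread between mice, Kcnj8 had the largest, and Notch3 is the receptor whose pathway is described below. Each is the 250 bases before the RefSeq start on GRCm38.p6, read 5′ to 3′ on the strand of the gene. They lie at chr1:169655251-169655500 on the plus strand for Rgs5, chr6:142571615-142571864 on the minus strand for Kcnj8 and chr17:32166891-32167140 on the minus strand for Notch3.
Rgs5: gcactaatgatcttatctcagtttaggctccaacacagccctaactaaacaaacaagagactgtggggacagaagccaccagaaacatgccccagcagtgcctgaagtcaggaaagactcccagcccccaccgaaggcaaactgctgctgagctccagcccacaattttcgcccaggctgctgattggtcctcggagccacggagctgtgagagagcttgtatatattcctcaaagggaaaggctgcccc
Kcnj8: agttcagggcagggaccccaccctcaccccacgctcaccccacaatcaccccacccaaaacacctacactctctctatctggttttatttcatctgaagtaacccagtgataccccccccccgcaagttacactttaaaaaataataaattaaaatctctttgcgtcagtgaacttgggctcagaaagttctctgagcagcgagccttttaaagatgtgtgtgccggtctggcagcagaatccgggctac
Notch3: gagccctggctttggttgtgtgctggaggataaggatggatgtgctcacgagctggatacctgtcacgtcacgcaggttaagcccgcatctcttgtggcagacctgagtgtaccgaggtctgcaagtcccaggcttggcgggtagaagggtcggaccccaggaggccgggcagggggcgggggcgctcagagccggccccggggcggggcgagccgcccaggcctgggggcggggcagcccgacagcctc
GC content was 53.6% in the Rgs5 window, 49.2% in the Kcnj8 window and 68.8% in the Notch3 window, beside a median of 52.4% over 32817 promoter windows of the same length. No base is in capitals because none of the 4 motifs searched on both strands was present in these windows. The motifs were the RBPJ motif TGGGAA, found in 21.6% of all windows, the TEAD motif CATTCC, found in 12.6%, the antioxidant response element core TGACNNNGC, found in 10.2%, and the CArG box of serum response factor, found in 1.47%. Promoter windows were given for 7 of the 10 members. Among these 7, Abcc9 and Acta2 each held 1 RBPJ and 1 TEAD match, and Cspg4 and Des held none. By the annotation, 217 of the 250 bases of the Acta2 window, 41 of Abcc9 and 71 of Cspg4 lie in exons.

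Rgs5, on chromosome 1 at 169655501-169695813 (GRCm38, GENCODE M21), was higher in the lungs of LPS + Tan mice, by 1.38-fold. In CPM, the reads of a gene scaled to library size by TMM, it was 44.7, 54.1, 48.7 and 47.8 in LPS replicates 1 to 4 and 69.6, 66.0, 67.2 and 66.7 in LPS + Tan replicates 1 to 4. Every LPS + Tan mouse lay above every LPS mouse, and the gap between the nearest values was larger than the range within either group. The means were 48.8 ± 3.90 and 67.4 ± 1.58 CPM (SD, n = 4 each), and the log2 fold change was 0.47 (SE 0.077). Behind these values were 1749 to 2831 reads per sample. The pooled SD within groups was 0.084 on the log2 CPM scale, smaller than that of 93.0% of the genes tested, and reads of this number would give 0.030 by counting alone. A small spread goes into a low p, by which Rgs5 was chosen, so its rank by spread describes the choice. The RNA came from tissue with all its cell types, in which fewer cells of a type and less RNA per cell cannot be told apart.

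Rgs5 had the lowest unadjusted p of the 15706 genes that passed the filter on low counts, and its Benjamini-Hochberg adjusted p was 0.497 by edgeR's quasi-likelihood test. No gene passed an adjusted p of 0.05 in that test (0% called), while 804 had an unadjusted p below 0.05. Rgs5 was called by DESeq2, with an adjusted p of 0.000694, and by the likelihood ratio test of edgeR (adjusted p = 0.0111), and these called 34 and 23 genes in all. Its adjusted p ranged from 0.000694 to 0.9999 over 21 alternative settings, and the call rested on these 2 tools. The log2 fold change stayed between 0.43 and 0.51 in all of them.

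**Figure D1:**
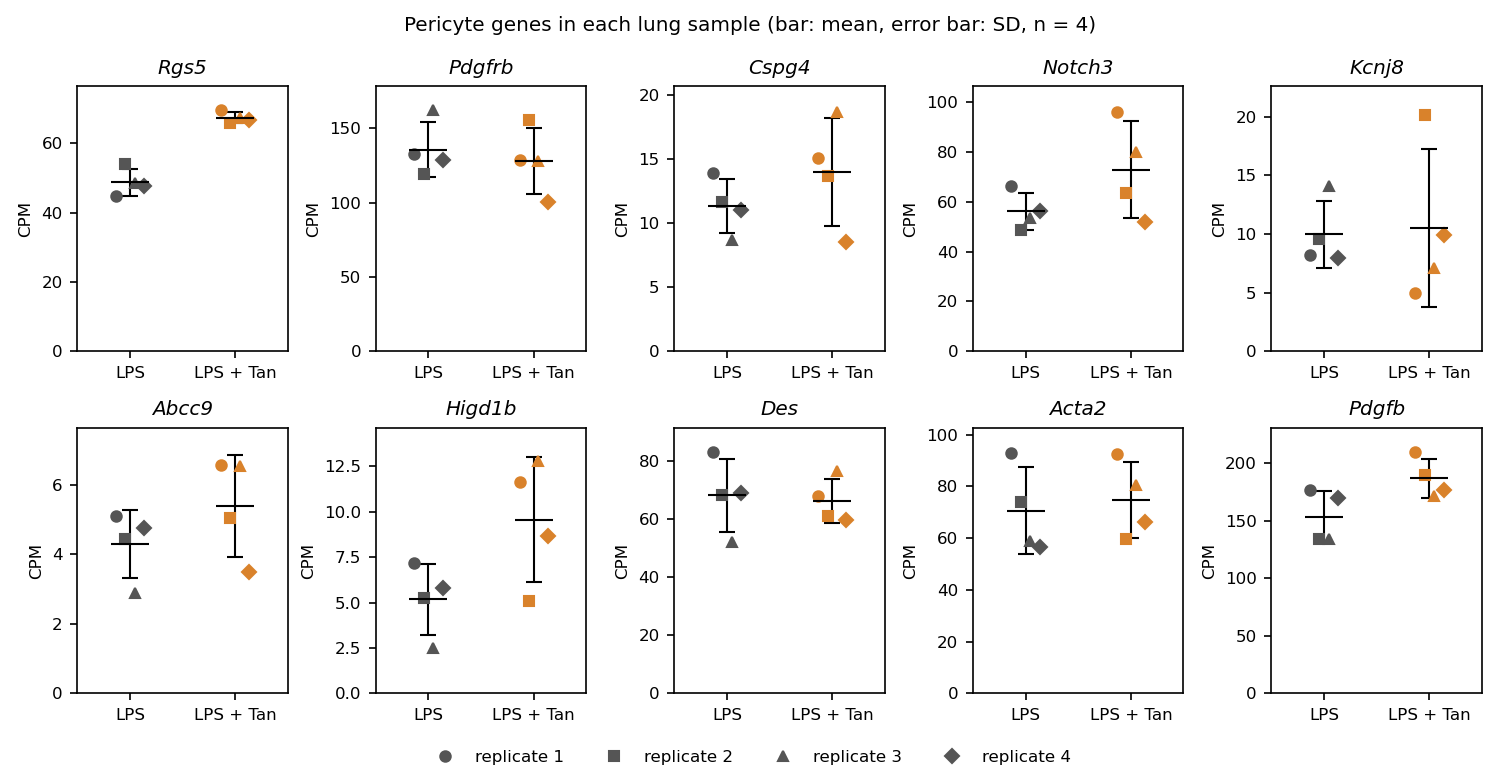
CPM of each of the 10 genes in the 4 LPS and 4 LPS + Tan lungs, with 1 panel per gene and a vertical axis from 0. Symbols mark replicates 1 to 4, the horizontal line is the group mean and the error bar the SD. Groups are apart in the Rgs5 panel, with LPS at 44.7 to 54.1 and LPS + Tan at 66.0 to 69.6 CPM, and overlap in the other 9.

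Over the 10 genes, 8 had a positive log2 fold change and 2 a negative one, with a median of 0.29, or 0.28 without Rgs5. The median over all tested genes was 0.007, and 51.8% of them were positive. All 10 passed the filter on low counts. At an unadjusted p below 0.05, 3 members were higher (Rgs5, Higd1b and Pdgfb), where 2.87% of all genes were, and none was lower, where 2.25% were. None differed by more than 1 on the log2 scale, and at that fold and p 0.649% of all genes were called. Only Rgs5 had groups that did not overlap with LPS + Tan higher, which 1.58% of all genes showed (1.15% with LPS + Tan lower). The count of 3 became 1, Rgs5 alone, without LPS + Tan replicate 1, and 6 without LPS + Tan replicate 4, when Cspg4, Notch3 and Abcc9 joined.

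Pdgfb, the endothelial ligand that recruits pericytes (chromosome 15, 79995874-80014977), was the highest member per length. It was 176, 134, 134 and 170 CPM in the LPS mice and 210, 190, 171 and 177 CPM in the LPS + Tan mice. The groups overlapped through LPS replicate 1, which lay above LPS + Tan replicate 3. The means were 154 ± 22.7 and 187 ± 17.0 CPM (SD, n = 4 each), a log2 fold change of 0.28 (SE 0.12).

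Pdgfrb, which encodes the receptor for PDGF-B on mural cells, was 132, 119, 162 and 128 CPM with LPS and 128, 155, 128 and 100 CPM with LPS + Tan. The groups overlapped, and both the lowest and the second highest value were LPS + Tan mice. The log2 fold change was -0.08 (SE 0.14), and it was positive in 3 of the 21 settings. Leaving out 1 lung moved it from -0.19, without LPS + Tan replicate 2, to 0.02, without LPS + Tan replicate 4. Ligand and receptor thus had differences of opposite sign in the same 8 lungs, the receptor's being smaller than its error. Of the other 4 genes of the PDGF family, 1 had a positive difference and 3 a negative one, with a median of -0.11. Pdgfd, which encodes another ligand of this receptor, was 7.45 ± 2.94 CPM with LPS and 12.9 ± 3.83 with LPS + Tan (SD, n = 4 each), a log2 fold change of 0.79 (SE 0.30, edgeR adjusted p = 0.924). Its groups overlapped. Pdgfc, a ligand of the alpha receptor, had a log2 fold change of -0.36 (SE 0.24), and Pdgfra, the receptor of fibroblasts and their precursors, one of -0.19 (SE 0.18).

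Notch3, the Notch receptor of mural cells (chromosome 17, 32120820-32166852), was 66.1, 48.7, 53.3 and 56.4 CPM with LPS and 96.1, 63.6, 79.9 and 51.8 CPM with LPS + Tan. LPS + Tan replicates 1 and 3 lay above all LPS mice, and replicates 2 and 4 lay within their range. Its log2 fold change was 0.38 (SE 0.18), and it lay between 0.21, without LPS + Tan replicate 1, and 0.51 over the settings. Of its 8089 exonic bases, 488 are shared with a gene on the opposite strand, and the sources used here do not say whether reads were counted by strand.

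Of 15 other genes of the Notch pathway, 6 had a positive difference and 9 a negative one, with a median of -0.09. At an unadjusted p below 0.05, 4 were higher and none lower (2.87% and 2.25% of all genes), and the same 4 had groups that did not overlap (1.58% of all genes with LPS + Tan higher). They were the endothelial ligand Dll4 (28.5 ± 0.945 against 39.2 ± 3.04 CPM), the glycosyltransferase Lfng (36.01 ± 1.80 against 49.1 ± 3.57), the ligand Jag2 (26.8 ± 4.33 against 37.1 ± 6.68) and the target gene Hey1 (8.93 ± 0.567 against 21.0 ± 9.83), given as LPS against LPS + Tan (SD, n = 4 each). The adjusted p of Dll4 and Lfng was 0.497 by edgeR, and none of the 15 genes passed an adjusted p of 0.05 in that test. Hey1, Jag2 and the receptors Notch1, Notch2 and Notch4 were named after their values were seen. The mural cell target Heyl had a log2 fold change of -0.14 (SE 0.16), and the other receptors Notch1, Notch2 and Notch4 had -0.09 (SE 0.096), -0.12 (SE 0.16) and -0.03 (SE 0.096). Ligands Dll1 and Jag1 had -0.29 (SE 0.16) and -0.19 (SE 0.12).

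Kcnj8 and Abcc9 encode the pore and the regulatory subunit of the mural cell potassium channel, and they lie next to each other on chromosome 6, at 142564837-142571614 and 142587862-142702315, 16.2 kb apart. Kcnj8 was 8.21, 9.57, 14.1 and 7.96 CPM with LPS and 4.97, 20.1, 7.12 and 9.90 CPM with LPS + Tan. The highest and the lowest of the 8 values were both LPS + Tan mice. Its pooled SD of 0.66 on the log2 scale was larger than that of all but 7.07% of tested genes, and counting alone would give 0.072. The log2 fold change was 0.08 (SE 0.38), and its sign was negative in 8 of the 21 settings. Single lungs moved it from -0.44, without LPS + Tan replicate 2, to 0.31, without LPS + Tan replicate 1.

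Abcc9 was 5.12, 4.46, 2.90 and 4.77 CPM with LPS and 6.57, 5.04, 6.54 and 3.48 CPM with LPS + Tan. LPS + Tan replicates 1 and 3 were above all LPS mice, and replicate 4 was below all of them but replicate 3. Its log2 fold change was 0.33 (SE 0.24), from 111 to 269 reads per sample. It became 0.18 without LPS replicate 3 and 0.22 without LPS + Tan replicate 1. Over the settings it lay between 0.14, with limma on log2(FPKM + 1), and 0.49, without LPS + Tan replicate 4. Of its 8373 exonic bases, 158 are shared with a gene on the opposite strand. Among 4 tested partners and other potassium channel genes of these cells, 3 had a positive and 1 a negative difference. None had an unadjusted p below 0.05, where 2.87% of all genes were higher and 2.25% lower. The 4 included Kcnma1, the pore of the calcium-activated channel, at 0.811 ± 0.099 against 1.22 ± 0.526 CPM, and Kcnj11, the pore of the related pancreatic and cardiac channel, at 0.844 ± 0.312 against 0.571 ± 0.263 CPM (SD, n = 4 each).

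Cspg4 encodes the NG2 proteoglycan of the pericyte surface (chromosome 9, 56865033-56899870). It was 13.9, 11.7, 8.70 and 11.04 CPM with LPS and 15.1, 13.7, 18.6 and 8.53 CPM with LPS + Tan. The lowest value of all was LPS + Tan replicate 4 and the highest LPS + Tan replicate 3. This gave a log2 fold change of 0.30 (SE 0.22), which became 0.13 without LPS + Tan replicate 3, 0.20 without LPS replicate 3 and 0.48 without LPS + Tan replicate 4.

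Higd1b, a member of the hypoxia-induced gene domain family that marks lung pericytes (chromosome 11, 102835849-102838040), had the largest difference of the 10 and the second largest spread. It was 7.16, 5.24, 2.51 and 5.78 CPM with LPS and 11.7, 5.11, 12.8 and 8.68 CPM with LPS + Tan. LPS + Tan replicates 1, 3 and 4 lay above all LPS mice, and replicate 2 lay between LPS replicates 3 and 2. The means were 5.17 ± 1.95 and 9.57 ± 3.44 CPM (SD, n = 4 each), a fold of 1.85 and a log2 fold change of 0.89 (SE 0.34). It rested on 96 to 527 reads per sample, and over the settings it lay between 0.66 and 1.09.

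Des and Acta2 encode the muscle intermediate filament desmin and smooth muscle alpha-actin, and both had differences smaller than their errors. Des was 83.0, 68.4, 52.1 and 69.0 CPM with LPS and 67.9, 60.9, 76.3 and 59.7 CPM with LPS + Tan, so that all LPS + Tan values lay inside the LPS range. Its log2 fold change was -0.04 (SE 0.14), with the sign reversed in 6 of the 21 settings, and from -0.15 without LPS replicate 3 to 0.07 without LPS replicate 1. Acta2 was 93.0, 74.1, 59.0 and 56.6 CPM with LPS and 92.4, 59.8, 80.7 and 66.4 CPM with LPS + Tan. Its log2 fold change was 0.08 (SE 0.18), with the sign reversed in 2 settings, and from -0.04 without LPS + Tan replicate 1 to 0.24 without LPS replicate 1. Des lies on chromosome 1 at 75360329-75368579 and shares 220 of 3754 exonic bases with a gene on the opposite strand. Acta2, on chromosome 19 at 34241090-34255590, is close in sequence to other actin genes, so that its reads may have been split among them.

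Of the R4 family of RGS genes, to which Rgs5 belongs, 6 other members were tested, and 3 had positive and 3 negative differences with a median of 0.05. Rgs4, also a regulator of G protein signalling in mural cells, lies 45.7 kb from Rgs5 on the opposite strand. It was 50.6, 36.1, 39.2 and 35.8 CPM with LPS and 55.9, 39.9, 47.8 and 49.1 CPM with LPS + Tan. The groups overlapped, and the log2 fold change was 0.25 (SE 0.14, edgeR adjusted p = 0.924). Rgs3 was 31.7 ± 2.15 against 40.4 ± 7.98 CPM, with an edgeR adjusted p of 0.924. It was the only one of the 6 with an unadjusted p below 0.05, where 2.87% of all genes were higher and 2.25% lower. Rgs1, which is found mainly in lymphocytes, was 13.4 ± 3.43 against 9.16 ± 2.81 CPM, and Rgs2 was 113 ± 23.5 against 92.0 ± 14.8 CPM (SD, n = 4 each). Among 14 vasoactive receptor and G alpha subunit genes, 6 had positive and 8 negative differences, with a median of -0.04. The sphingosine 1-phosphate receptor gene S1pr3 was the only one with an unadjusted p below 0.05, at 132 ± 9.57 against 108 ± 11.5 CPM (edgeR adjusted p = 0.924). Of all genes, 2.25% were lower at that p. The groups of S1pr3 were apart with TMM scaling, with LPS + Tan lower as in 1.15% of all genes, but overlapped with library totals alone.

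A list of 20 other genes of pericytes was set beside the 10, and 19 were tested. Of these 14 had a positive and 5 a negative difference, with a median of 0.14 against 0.007 for all genes. Higher at an unadjusted p below 0.05 were 3, Trpc6, Cox4i2 and Foxs1, and none was lower, where 2.87% and 2.25% of all genes were. Trpc6, a cation channel gated by diacylglycerol, was 16.4, 16.7, 15.8 and 15.3 CPM with LPS and 29.9, 24.0, 23.4 and 18.1 CPM with LPS + Tan. Its groups did not overlap (1.58% of all genes with LPS + Tan higher), and its log2 fold change was 0.57 (SE 0.14, edgeR adjusted p = 0.850). Cox4i2, an isoform of a cytochrome c oxidase subunit, was 13.0 ± 1.84 against 17.4 ± 3.23 CPM, and the transcription factor gene Foxs1, named after its value was seen, was 3.32 ± 0.315 against 4.37 ± 0.749 CPM (SD, n = 4 each). The laminin receptor subunit gene Itga7 had the lowest p among those with a negative difference, at -0.29 (SE 0.17). The count of 3 was 1 without LPS replicate 2, without LPS replicate 3, without LPS + Tan replicate 1 and without LPS + Tan replicate 4, and 5 without LPS + Tan replicate 2.

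**Figure D2:**
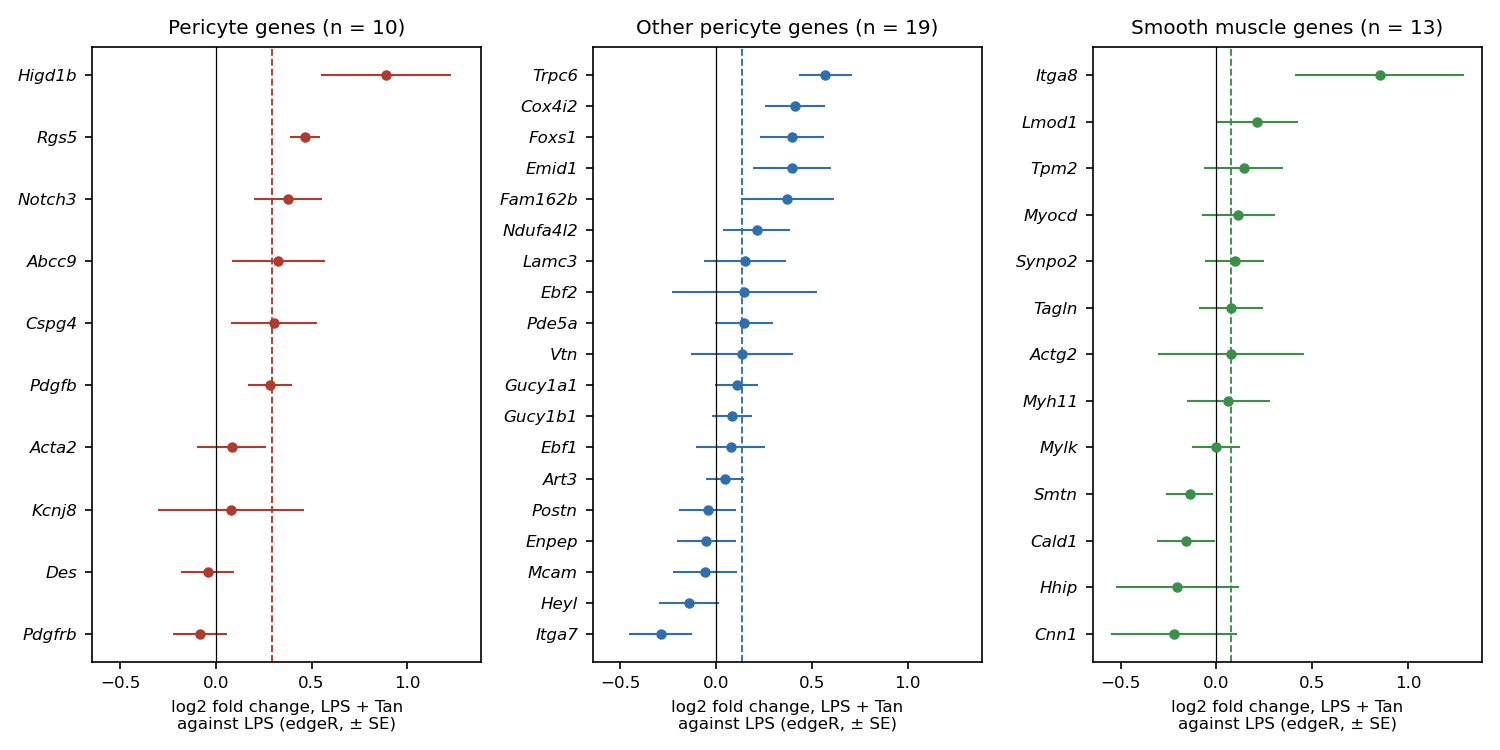
Log2 fold change of LPS + Tan against LPS by edgeR for the 10 pericyte genes, the 19 tested genes of the other pericyte list and 13 smooth muscle genes. Points are genes, bars are ± SE, the solid line is 0 and the dashed line is the median of the list, at 0.29, 0.14 and 0.07. Rgs5 has the shortest bar of the left panel and Kcnj8 the longest.

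Genes of the neighbouring cell types were counted in the same way, beside the same 2.87% higher and 2.25% lower of all genes. Of 13 smooth muscle genes, 8 had a positive and 5 a negative difference and none had an unadjusted p below 0.05. Their summed level was 699.8 to 942 CPM with LPS and 647 to 915 CPM with LPS + Tan, and the lowest values were LPS replicate 3 and LPS + Tan replicate 4. Of 14 endothelial genes, 10 were positive and 4 negative, with a median of 0.16. An unadjusted p below 0.05 was found for 2, both positive. They were the VEGF receptor gene Kdr (log2 fold change 0.37, SE 0.15, edgeR adjusted p = 0.924) and the angiopoietin receptor gene Tek (0.51, SE 0.22, edgeR adjusted p = 0.924). Lowest in p among the negative were Cdh5 (-0.15, SE 0.14) and Gpihbp1 (-0.14, SE 0.17). The summed level of the 14 endothelial genes was 4109 to 5357 CPM with LPS and 5028 to 5248 CPM with LPS + Tan. Of 12 fibroblast genes, 5 were positive and 7 negative, and of 8 epithelial genes, 2 were positive and 6 negative, with medians of -0.07 and -0.06. The 4 mesothelial and 8 leukocyte genes had medians of -0.05 and 0.04. All 9 tested genes of cardiac muscle, which enters lung samples with the sleeves of the pulmonary veins, were positive with a median of 0.25, and none had an unadjusted p below 0.05. Their summed level was 172 to 243 CPM with LPS and 169 to 333 CPM with LPS + Tan. The genes of skeletal muscle summed to at most 10.6 CPM in any lung. The part of these other cells in the differences of the 10 genes was not tested.

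Compared per length in FPKM (fragments scaled by gene length and library size), the 10 genes spanned from below 1 to above 30. With LPS the order was Pdgfb 29.7 ± 4.50, Acta2 24.6 ± 5.97, Des 21.9 ± 4.27 and Pdgfrb 21.8 ± 2.50 FPKM (SD, n = 4), and the ranges of neighbours among these 4 overlapped. Rgs5 followed at 10.6 ± 0.985 FPKM, apart from the genes on either side. Notch3 at 6.61 ± 0.855, Higd1b at 5.19 ± 1.99 and Kcnj8 at 3.84 ± 1.03 FPKM overlapped with their neighbours in that order, and Cspg4 at 1.39 ± 0.274 and Abcc9 at 0.528 ± 0.125 FPKM were apart. With LPS + Tan, Pdgfb at 37.3 ± 3.76 FPKM was apart from Acta2 at 26.9 ± 5.89, and Acta2 overlapped with Des at 22.0 ± 3.29 and Des with Pdgfrb at 21.3 ± 3.96. Rgs5 at 15.05 ± 0.748 FPKM was again apart on both sides. Higd1b at 9.92 ± 3.81 and Notch3 at 8.89 ± 2.58 FPKM were in the other order, with ranges that overlapped. Kcnj8 at 4.16 ± 2.61 FPKM overlapped with both Notch3 and Cspg4 at 1.78 ± 0.586, and Abcc9 was again lowest at 0.685 ± 0.205 FPKM. The level of Kcnj8 per length was thus several times that of Abcc9, its channel partner, in both groups.

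**Figure D3:**
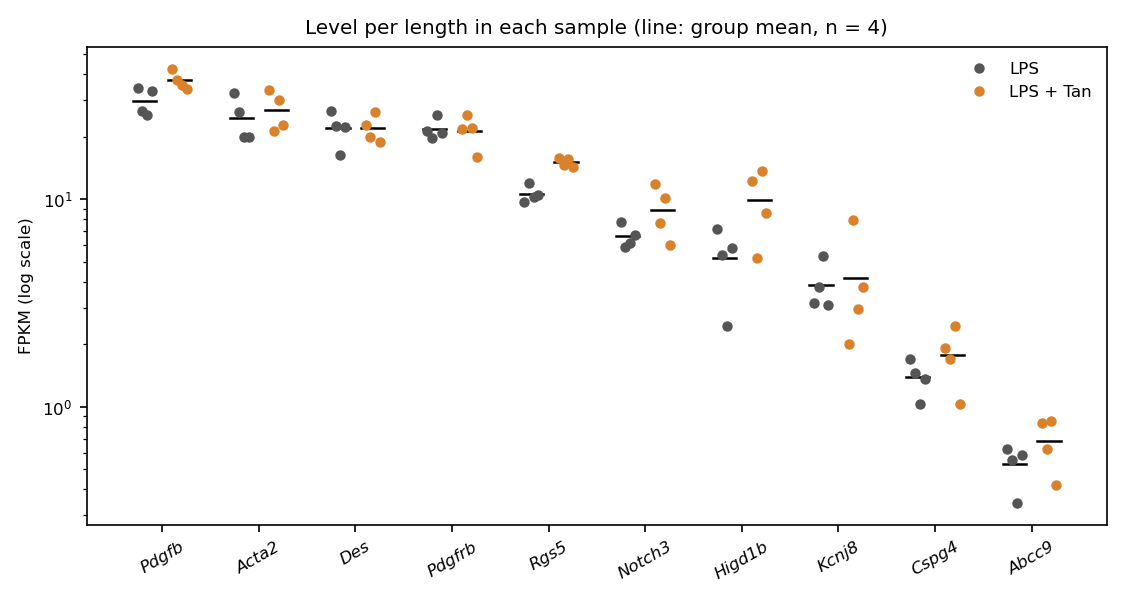
FPKM of the 10 genes on a log axis, with a point for each of the 4 LPS and 4 LPS + Tan lungs and a line at the group mean. The genes are in the order of the LPS means, from Pdgfb at 29.7 to Abcc9 at 0.528 FPKM, and Rgs5 stands apart from its neighbours in both groups.

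The deviations of single mice from their group mean were used to describe which members varied together. The size of this spread in Rgs5 entered its choice through its p, so the relations of Rgs5 are given as a description with no test. Deviations of log2 CPM from the group mean were correlated over the 8 samples, and r and rho between the other members and with the lists were tested by an exact permutation test, two-sided, over the 576 arrangements within groups. Pearson's r with Rgs5 ran from -0.56 for Pdgfb (rho -0.62) to -0.011 for Abcc9 (rho 0.095). Among the 13735 genes at a mean of at least 1 CPM, the 9 members ranked between 7095 and 13188 by their r with Rgs5. The sign was kept for Pdgfb and changed for the other 8 when 1 sample was left out. Most of the spread in Rgs5 came from LPS replicates 1 and 2. Without these, r was 0.22 for Pdgfb, 0.88 for Acta2, 0.72 for Notch3 and -0.67 for Kcnj8, and scaling by library totals alone turned 6 of the 9 positive.

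Among the other members, several deviated together in single lungs. In LPS replicate 3, Higd1b, Abcc9, Des and Cspg4 were 0.93, 0.53, 0.37 and 0.36 below the group mean on the log2 scale, while Kcnj8 was 0.54 above it. In LPS + Tan replicate 2, Kcnj8 was 1.13 above and Higd1b 0.81 below. Of the 36 pairs without Rgs5, 6 had a Pearson permutation p below 0.05 and none passed adjustment, with a lowest adjusted p of 0.0875. The strongest was Cspg4 with Abcc9, at r = 0.93 (permutation p = 0.00694, adjusted p = 0.0875) and rho = 0.86 (p = 0.0226, adjusted p = 0.156), and r was 0.92 without the 2 samples farthest from the median of Cspg4. Higd1b with Des had r = 0.88 (permutation p = 0.0122, adjusted p = 0.0875) and rho = 0.98 (p = 0.0139, adjusted p = 0.156), and r was 0.94 without the 2 farthest in Higd1b. Kcnj8 with Higd1b had r = -0.87 (permutation p = 0.0104, adjusted p = 0.0875) and rho = -0.81 (p = 0.0347, adjusted p = 0.156), and r was -0.96 without the 2 farthest in Kcnj8. Kcnj8 and Abcc9, the paired channel subunits, had r = -0.59 (permutation p = 0.188, adjusted p = 0.338) and rho = -0.88 (p = 0.0469, adjusted p = 0.156), with r = -0.87 without the 2 farthest in Kcnj8. Ligand and receptor, Pdgfb and Pdgfrb, had r = 0.011 (permutation p = 0.965, adjusted p = 0.965) and rho = 0.12 (p = 0.780, adjusted p = 0.821), with r = -0.22 without the 2 farthest in Pdgfrb.

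Each member was also set against the mean standardized deviation of a list of cell type genes. Of the 45 such relations without Rgs5, 8 had a Pearson permutation p below 0.05 and none passed adjustment. Cspg4 and the smooth muscle list had r = 0.90 (permutation p = 0.00174, adjusted p = 0.0781) and rho = 0.93 (p = 0.00347, adjusted p = 0.156), with r = 0.83 without the 2 samples farthest from the median of the list. Des had r = 0.91 with that list (permutation p = 0.0104, adjusted p = 0.117) and rho = 0.98 (p = 0.0139, adjusted p = 0.182), with r = 0.86 without them. Abcc9 had r = 0.91 (permutation p = 0.00694, adjusted p = 0.104) and rho = 0.86 (p = 0.0174, adjusted p = 0.182) with it, and r = 0.85 without the 2 farthest. Notch3 was closest to the other pericyte list, at r = 0.90 (permutation p = 0.00347, adjusted p = 0.0781) and rho = 0.90 (p = 0.0139, adjusted p = 0.182), and r was 0.81 without the 2 farthest. Rgs5 had r = -0.011 with smooth muscle (rho -0.12), and r was -0.089 without the 2 samples farthest in the list and 0.51 without LPS replicates 1 and 2, the 2 farthest in Rgs5. With the other pericyte list Rgs5 had r = -0.43 (rho -0.29), and r was -0.38 without the 2 farthest in the list and 0.61, with the sign reversed, without LPS replicates 1 and 2. All these relations share the same 8 libraries.

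**Figure D4:**
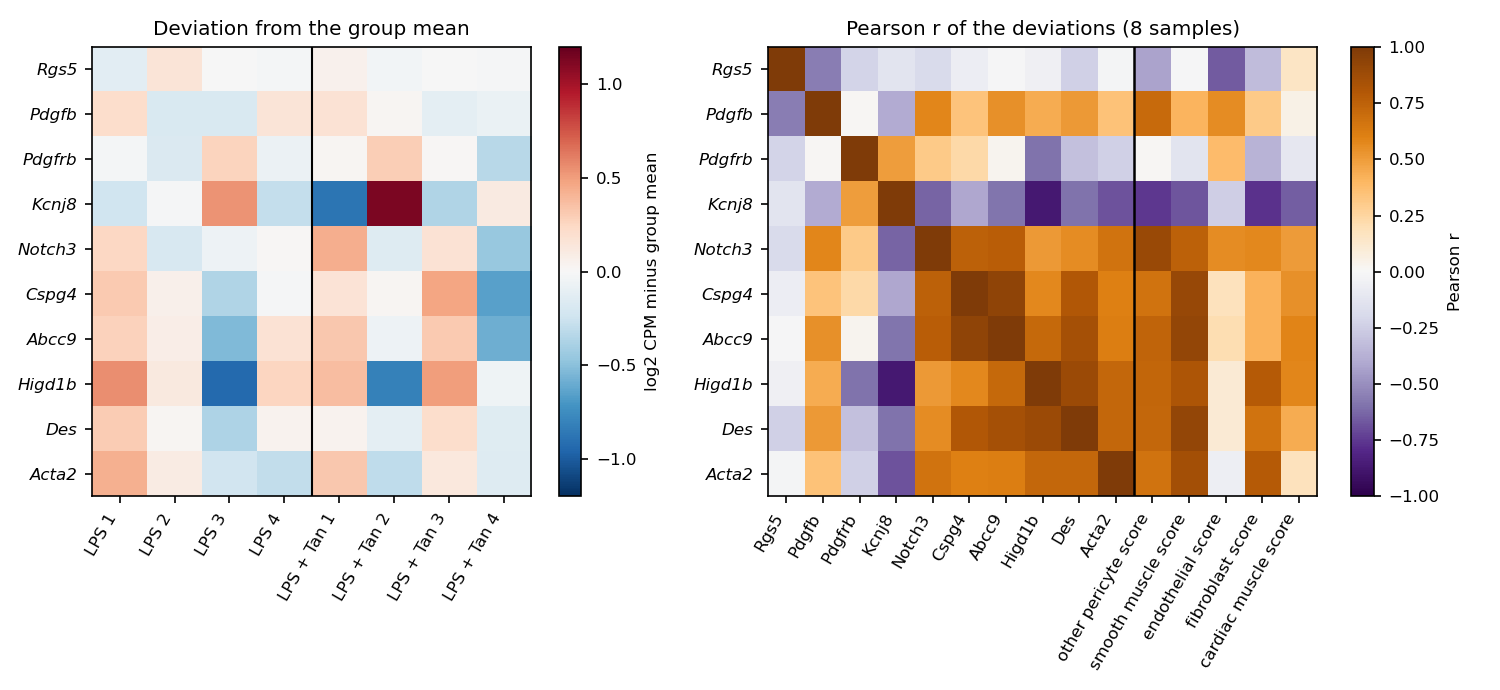
Left, deviation of log2 CPM from the group mean for the 10 genes (rows) in the 8 lungs (columns), in red above and in blue below. Right, Pearson's r of these deviations between members and with the scores of 5 cell type lists, on a scale from -1 to 1. Notch3, Cspg4, Abcc9, Higd1b, Des and Acta2 form a block of positive r, Kcnj8 is negative with these 6, and the row of Rgs5 is negative except with the cardiac muscle score.

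Of all genes at a mean of at least 1 CPM, those whose deviations were most like those of Rgs5 over the 8 samples were Gm5141 (r = 0.97), Zc3h8 (0.96), Man2c1 (0.96), Abcf3 (0.95), Gtf3c3 (0.95), Ddx39b (0.92), Qtrt2 (0.92), LOC102634078 (0.92), Dynlt1c (0.92) and Obi1 (0.92). These are the highest of many values and are given as a description. Without LPS replicates 1 and 2, r with Rgs5 was 0.92 for Abcf3 and 0.37 for Man2c1. None of these 10 is on the pericyte lists. Between groups they had log2 fold changes of -0.08 to 0.34, below the 0.47 of Rgs5.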

How the data were processed

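Lung tissue RNA of 4 LPS and 4 LPS + Tan mice was analysed. The authors deposited, for the same 24584 genes, read counts without normalization and FPKM values made from them. The submitters' processing notes name GRCm38 and mm10, and no aligner, counter or annotation is given in the sources used here. Counts per sample summed to 38895654 to 39931970, and 0 sample columns were left without a sample. The replicates were taken as separate mice. A p-value for a group difference sets that difference against the spread between these samples only. The smallest spread seen between 2 samples of a group was 7.84 times sampling noise, so no library was repeated.

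Counts were filtered with filterByExpr, scaled by TMM and tested with the quasi-likelihood test of edgeR 4.0.16 (R 4.3.3), with no covariate, on 15706 genes, and p was adjusted by Benjamini-Hochberg over these. The SE of a log2 fold change was its size over the square root of F. Alternatives were DESeq2 1.42.0, limma-voom (limma 3.58.1), the likelihood ratio test, RLE, upper-quartile and library-total scaling, no filter, 1 CPM in 4 samples, limma on log2(FPKM + 1) and log2(FPKM + 0.1), where fold changes of low genes are understated, a block for replicate number, and fits without each sample in turn. Leaving out both LPS replicate 3 and LPS + Tan replicate 4, which had the lowest smooth muscle scores, was added after seeing the data. The scripts were tested on simulated data.

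The members and the lists were chosen with earlier results of these data known. Of 151 different genes on the lists, 149 were in the tables, and Heyl, Pdgfra and Ednrb are on 2 lists each. The rule for naming genes was the 10 members, the 2 tested genes of lowest p in each direction of each other list, and the 10 genes most like Rgs5. Not all genes under this rule are printed. The smooth, cardiac and skeletal muscle, fibroblast, mesothelial, epithelial and leukocyte lists are described without naming their genes. Only S1pr3 is named from the vasoactive list, and only Kcnma1 and Kcnj11 from the potassium channel list. Outside this rule, Jag2, Hey1, Notch1, Notch2, Notch4 and Foxs1 were named after their values were seen. Of the listed genes, Foxd1, Myl2, Rgs8, Rgs13, Agtr1b and Kcna5 were among those too low to be tested. Positions are from GENCODE M21 and promoters from RefSeq. The planned permutation test of the members' relations with Rgs5 is not printed, since its spread entered its choice, and the other relations were adjusted without it.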

Additional observations from a re-analysis of the deposited data

Results flagged for a closer look

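The fibroblast score, the mean standardized deviation of the fibroblast genes from their group mean, had 1 sample far from the others of its group. LPS replicate 1 was the highest of the 4 LPS samples, with a gap to the next that was 0.861 of the group's range, above Dixon's critical value at 95% for 4 samples. Among 30 groups examined, over the 10 genes and the scores of the cell type lists, this was the only one, and chance would give about 1.5. LPS replicate 1 was also the lowest of the 8 samples for Rgs5.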

How the results depend on the processing

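The log2 fold change of Rgs5 stayed positive, between 0.43 and 0.51, under all 21 alternatives, and it stayed positive for Cspg4, Notch3, Abcc9, Higd1b and Pdgfb. It changed sign in 3 for Pdgfrb, 8 for Kcnj8, 6 for Des and 2 for Acta2. The number of genes past an unadjusted p of 0.05 and a log2 fold change of 1 (102, of which 55 higher and 47 lower) was 224 with DESeq2, 418 with no filter, 41 with 1 CPM in 4 samples, 14 with log2(FPKM + 1), 40 with log2(FPKM + 0.1), 11 with log2(FPKM + 1) of all genes, and 157 without both LPS replicate 3 and LPS + Tan replicate 4. With library totals only it was 103 with 66 higher and 37 lower, against 451 higher and 353 lower at p alone in the main test and 653 and 239 there. At an adjusted p of 0.05 (0 genes), it was 34 with DESeq2, 23 with the likelihood ratio test, 2 with log2(FPKM + 1) of all genes and 1 without both samples. With 1 sample left out, the first count was 75 to 238, at 155 without LPS replicate 1, 182 without LPS + Tan replicate 4 and 238 without LPS + Tan replicate 2, the second 0 to 1, members at p below 0.05 numbered 1 to 6, and other pericyte genes 1 to 5. Without both samples, the members numbered 3 and the other pericyte genes 1. The cause of these changes was not tested.

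Correlations with Rgs5 changed sign with library totals only for Cspg4 (0.34), Notch3 (0.16), Abcc9 (0.37), Higd1b (0.23), Des (0.18) and Acta2 (0.25). With 1 sample left out they ran from -0.26 to 0.29 for Cspg4, -0.53 to 0.14 for Notch3, -0.17 to 0.32 for Abcc9, -0.24 to 0.37 for Higd1b, -0.54 to 0.35 for Des, -0.29 to 0.79 for Acta2, -0.39 to 0.18 for Pdgfrb, -0.34 to 0.053 for Kcnj8 and -0.79 to -0.28 for Pdgfb, which alone kept its sign.

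Samples with the same replicate number did not deviate together (correlations of -0.15 to 0.12), so the numbers were not taken to pair the samples. With the replicate number as a block, Rgs5 had a log2 fold change of 0.47 and an adjusted p of 0.582, members at p below 0.05 numbered 4, other pericyte genes 3, and 98 and 0 genes passed the respective thresholds.

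The SD expected from counting was below the SD between mice in all 10 genes. Its share was largest for Rgs5 (0.030 against 0.084 on the log2 scale).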
